A study of Mus musculus with 38 samples.

Results

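Kcnk3 and Stard10 are 2 of 19057 genes named by the probes of a mouse testis array study. They were chosen by measured values, because both were lower in LuRKO than in wild-type testes at day 8. Every probe annotated to either gene is given, 1 for Kcnk3 and 2 for Stard10, and all 3 were among the 31735 of 45281 probes kept after a filter on dim probes. Because day 8 chose the genes, its values are a description and carry no test.

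LuRKO mice have no receptor for luteinizing hormone, through which the pituitary stimulates Leydig cells to make testosterone. Whole testes were read on 38 single-colour Illumina arrays in 20 groups, each array holding RNA pooled from 2 animals. LuRKO testes were taken at days 3, 8, 13, 19 and 27, with birth as day 1, and set against testes of wild-type littermates of the same ages. LuRKO mice were also given 1 intraperitoneal injection of 2.5 mg testosterone propionate at day 19 and sampled 2, 4, 8, 12, 24 and 48 h later. Another set of LuRKO mice was given vehicle, 250 ng, 2.5 µg or 25 µg of the ester and sampled at 24 h, beside the 2.5 mg group of that time. All treated and vehicle mice thus also lacked the receptor, and no wild-type mouse was treated. Of the groups 18 held 2 arrays, while LuRKO day 27 and 2.5 mg at 24 h held 1 each. In whole testes, fewer cells of a type and less RNA per cell cannot be told apart.

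Kcnk3 encodes a two-pore-domain potassium channel, one of a family that leaks potassium at rest and so helps to set a cell's membrane potential. In the mouse adrenal, loss of this channel alters steroid hormone production. Stard10 encodes a START domain protein, a carrier that binds phosphatidylcholine and phosphatidylethanolamine and moves them between membranes. In the mouse testis it is known as a protein of late germ cells and of the sperm tail. Androgens made by Leydig cells act on Sertoli, peritubular and Leydig cells, while germ cells pass through meiosis and spermatid stages with the support of Sertoli cells.

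The promoter of Stard10 is shown because the gene differed between genotypes and because its brighter probe was higher on the array taken 24 h after 2.5 mg testosterone. The sequence is RefSeq's for GRCm38.p6, chr7:101316836-101317085 on the plus strand, the 250 bases before the annotated start, 5′ to 3′. Capitals mark the match to the half-site of the androgen and glucocorticoid receptors.
Stard10 promoter: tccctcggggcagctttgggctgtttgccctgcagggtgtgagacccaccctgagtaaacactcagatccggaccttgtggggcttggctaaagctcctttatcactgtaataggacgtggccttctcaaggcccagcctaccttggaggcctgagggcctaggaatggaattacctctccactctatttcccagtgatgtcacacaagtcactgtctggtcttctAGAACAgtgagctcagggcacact
Both strands were searched for AGAACA, for the core AAGGTCA bound by NR5A1, the steroidogenic cell regulator, and for TGACGTCA, the cyclic AMP response element, whose half-site TGACG lies within it and was searched too. The receptor half-site was found once, starting 24 bases before the start, and 16.1% of 32851 windows of this length hold it. The other letters were not in this window, where 4.08%, 1.55% and 17.8% of all windows hold AAGGTCA, TGACGTCA and TGACG. The sequence table holds no entry used here for Kcnk3.

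Intensities are the authors' normalized values on a linear scale, and differences are of log2 intensity after a background correction, given with a standard error (SE). A probe was above background at an intensity over 102. A difference was called when limma's p, adjusted by Benjamini and Hochberg over 31735 probes, was under 0.05. Replicates are separate pools, so p-values measure the spread between pools. Cyp17a1 and Insl3, genes of Leydig cells, were above background on all 38 arrays. LuRKO vehicle replicate A stood apart, with Cyp17a1 at 10.9 and Insl3 at 12.3 on the log2 scale. Replicate B had 7.43 and 9.23, against 10.8 to 11.4 and 12.7 to 13.0 in wild-type testes at day 19. The age label of vehicle replicate A also gives a later hour than that of replicate B. Wild-type day 3 replicate A had Ldhc, a germ cell enzyme gene, at 10.6, with 7.70 in replicate B. LuRKO day 13 replicate B had Rhox5, an androgen-regulated Sertoli cell gene, at 10.6, with 9.06 in replicate A. Vehicle replicate A also had Rhox5 at 10.9, with 8.15 in vehicle replicate B. Some of the results that rest on these 3 arrays are also given without them. Vehicle and untreated day 19 LuRKO testes, the 2 controls for testosterone, differed in 14.7% of probes.

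Kcnk3 was low in LuRKO testes from day 8 to day 19, and in both genotypes its signal was lower at each later age up to day 19. Its day 8 intensities were 332 and 277 in LuRKO testes, against 729 and 589 in wild-type testes. At day 3 they were 594 and 636 in LuRKO testes, against 992 and 653 in wild-type testes. All arrays of both ages were above background. At day 3 every LuRKO array lay below every wild-type array. The same order at day 8 was favoured by the choice of the gene and adds no separate evidence. With so few arrays per group such an order can arise by chance, so it is a description. The same holds wherever groups are said not to overlap, at other ages and for Stard10. The day 8 difference that chose the gene was -1.12 (SE 0.20).

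At day 13 Kcnk3 had intensities of 171 and 229 in LuRKO testes, against 400 and 389 in wild-type testes. The groups did not overlap, and LuRKO testes had 2.01-fold less signal (log2 -1.01, SE 0.20, 2 arrays against 2, limma adjusted p = 0.0054). At this age 1.41% of all probes were called. Without LuRKO replicate B and the other arrays that stood apart the difference was -1.23 and called. The call was lost on leaving out any of 3 other arrays, LuRKO A (-0.79), wild-type A (-0.99) and wild-type B (-1.03).

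At day 19 it had 98.1 and 126 in LuRKO testes, of which only replicate B was above background, against 209 and 198 in wild-type testes. The groups did not overlap here either, and LuRKO testes had 1.85-fold less signal (log2 -0.89, SE 0.20, limma adjusted p = 0.0020), at an age when 18.8% of probes were called. The call stood with each of these 4 arrays left out in turn, with differences between -1.08 and -0.70.

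At day 3 the difference was -0.39 (95% interval -0.79 to 0.01, limma adjusted p = 0.24) with 8.90% of probes called, and not called. It was -0.09 without wild-type replicate A, which stood apart, and -0.69 without wild-type replicate B, not called in either case. At day 27 Kcnk3 had 112 on the 1 LuRKO array, against 179 and 116 in wild-type testes. The difference there was -0.37 (95% interval -0.86 to 0.12) and was not called, in a comparison that called 48.6% of probes. Leaving out wild-type day 27 replicate B made it -0.70 and called. Day 27 thus does not settle whether Kcnk3 differed. It has 1 LuRKO array, the wild-type arrays lay apart, and the LuRKO array and wild-type replicate B were near background.

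**Figure D1:**
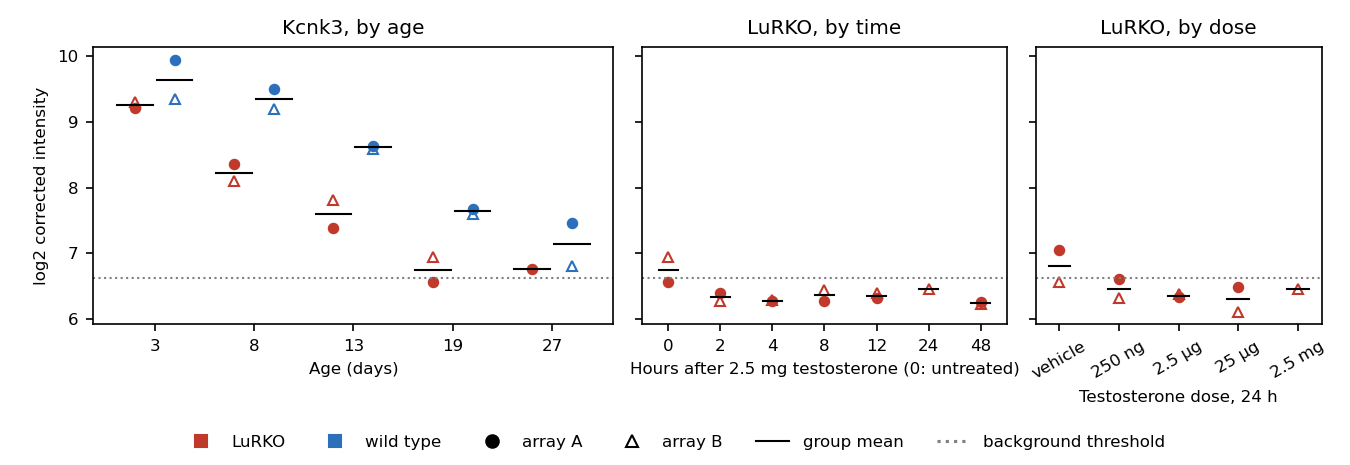
Kcnk3 on every array, as log2 corrected intensity, by age, by hours after 2.5 mg testosterone and by dose at 24 h. Symbols are arrays, bars are group means, the dotted line is the background threshold, and the untreated day 19 and 2.5 mg 24 h arrays appear in 2 panels each. Every array of a testosterone group lies under the threshold.

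Averaged over days 3, 13, 19 and 27, which leaves out the day that chose the genes, Kcnk3 had a LuRKO minus wild type difference of -0.67 (SE 0.10, 7 arrays against 8, limma adjusted p = 5.5e-06). This comparison called 41.9% of probes. Over days 13 and 19 alone the difference was -0.95 and also called. The test of whether the genotype difference varied among these 4 ages called 44.8% of probes and did not call Kcnk3 (F = 2.60, limma adjusted p = 0.13). It called Kcnk3 without the 3 arrays that stood apart (F = 6.53, adjusted p = 0.0067), without wild-type day 3 replicate A alone (F = 4.51) and without wild-type day 27 replicate A (F = 4.46).

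Kcnk3 fell with age in both genotypes. At day 27 it was 5.70-fold lower than at day 3 in wild-type testes (log2 -2.51, SE 0.20) and 5.63-fold lower in LuRKO testes (log2 -2.49, SE 0.24, day 27 being 1 array). Both changes were called, among 67.7% of probes in wild-type and 53.1% in LuRKO testes. Without the arrays that stood apart the wild-type change was -2.21. Ranked by group mean, Kcnk3 was highest in wild-type day 3 testes, followed by wild-type day 8 and LuRKO day 3 testes, and the ranges of neighbours among these 3 groups overlapped. Wild-type day 13 and LuRKO day 8 testes came next, each apart from its neighbours in the order. Wild-type day 19, LuRKO day 13 and wild-type day 27 testes followed with overlapping ranges.

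Sums over genes of Leydig and Sertoli cells are set beside Kcnk3 here, and their part in its differences was not tested. Corrected intensities were summed over 7 genes of Leydig cells, steroidogenic genes and Insl3. The sum was 10958 to 11892 in LuRKO testes, against 16661 to 21659 in wild-type testes at day 3. It was 2450 to 3643 in LuRKO testes, against 10464 to 11076 in wild-type testes at day 13, and 1446 to 1600, against 9011 to 11531, at day 19. At day 27 it was 2341 in LuRKO testes, against 14076 to 15437 in wild-type testes. Kcnk3 was then near background on the LuRKO array and on wild-type replicate B. In wild-type testes at day 19 most of the sum was Insl3 (8268 and 6645) and Cyp17a1 (2616 and 1762). Hsd3b6 of this list was above background on 7 of 38 arrays, Hsd3b1 on 19 and Hsd17b3 on 22. Of 7 tested members 1 was lower at day 13, when 0.568% of all genes were higher and 1.05% lower, and 1 was higher and 3 were lower at day 19, when 11.2% of all genes were higher and 10.7% lower. The sum of 12 Sertoli cell markers was 123302 to 126748 in LuRKO testes, against 122121 to 123680 in wild-type testes at day 13, and none of the 12 was called there. In the genotype average most of these 12 were called higher, where 26.6% of all genes were higher and 20.4% lower. Sums of intensities, for this and every other list, weigh the brightest genes most. Among the Sertoli cell markers, Aard and Cldn11 had lowest group means of 14.1 and 13.6 on the log2 scale, against 6.20 for Kitl.

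Stard10 did not differ detectably at day 3, was lower in LuRKO testes at day 13 and was far lower at day 27. Its brighter probe was above background on all 38 arrays and its dimmer probe on 35. At day 8 the brighter probe had intensities of 594 and 531 in LuRKO testes, against 933 and 960 in wild-type testes, a difference of -0.76 (SE 0.14) that chose the gene. The dimmer probe had 134 and 118 in LuRKO testes, against 101 and 136 in wild-type testes, where replicate A was not above background. Its groups overlapped, with a difference of 0.11 (SE 0.20). The choice of Stard10 thus rests on 1 of its 2 probes.

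At day 3 the brighter probe had 635 and 523 in LuRKO testes, against 545 and 642 in wild-type testes. The groups overlapped and the difference was -0.04 (95% interval -0.33 to 0.26). The dimmer probe differed by -0.14 (95% interval -0.54 to 0.26). Neither was called.

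At day 13 the brighter probe had 1100 and 1033 in LuRKO testes, against 1771 and 1936 in wild-type testes. LuRKO values were 1.74-fold lower, without overlap (log2 -0.80, SE 0.14, limma adjusted p = 0.0027). Without the arrays that stood apart it was -0.75 and called, and without wild-type replicate B it was -0.73 and not called. The dimmer probe had 130 and 150 in LuRKO testes, against 220 and 210 in wild-type testes. It also showed no overlap, and its difference of -0.63 (SE 0.20, limma adjusted p = 0.11) was not called.

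At this age the sum of 14 spermatid genes was 2790 to 2825 in LuRKO testes, against 2642 to 2787 in wild-type testes. Of these genes 1 was higher and none lower by limma, where 0.568% of all genes were higher and 1.05% lower. Prm1 of this list had intensities of 276 and 187 in LuRKO testes, against 71.1 and 72.2, not above background, in wild-type testes. It was also above background at day 3, with 501 and 446 in LuRKO testes, against 191 and 187 in wild-type testes. In untreated LuRKO testes of day 19 it had 262 and 215, and with vehicle 79.3 and 84.4, not above background. The source of the Prm1 signal was not tested. The sum of 11 macrophage markers was 3568 to 3876 in LuRKO testes, against 5978 to 6050 in wild-type testes, with 7 of 11 lower. The sum of 12 androgen-responsive Sertoli cell genes was 18327 to 19080 in LuRKO testes, against 33487 to 33781 in wild-type testes, with 4 of 12 lower. What part these had in the Stard10 difference was not tested.

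At day 19 the brighter probe had 1019 and 855 in LuRKO testes, against 1132 and 1177 in wild-type testes. LuRKO values were below wild type on both arrays, and the difference of -0.31 (95% interval -0.60 to -0.01, limma adjusted p = 0.14) was not called. The dimmer probe differed by -0.26 (SE 0.20) and was not called. Stard10 and Kcnk3 thus had different calls at day 19, and the 2 genes were not tested against each other.

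At day 27 the brighter probe had 763 on the LuRKO array, against 9561 and 7738 in wild-type testes. LuRKO signal was 11.3-fold lower (log2 -3.50, SE 0.18, 1 array against 2, limma adjusted p = 1.4e-16). The dimmer probe had 95.3, not above background, on the LuRKO array, against 1136 and 1086 in wild-type testes, and was at least 11.2-fold lower in LuRKO testes (limma adjusted p = 1.0e-13). The dimmer probe's value is a lower bound. All 14 spermatid genes tested were lower at day 27, with a median of -4.25 and a sum of 19839 in LuRKO testes, against 169385 to 173415 in wild-type testes. Of all genes 33.8% were higher and 20.5% lower at this age. Spermatid RNA and Stard10 moved together here and cannot be told apart in whole testes.

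**Figure D2:**
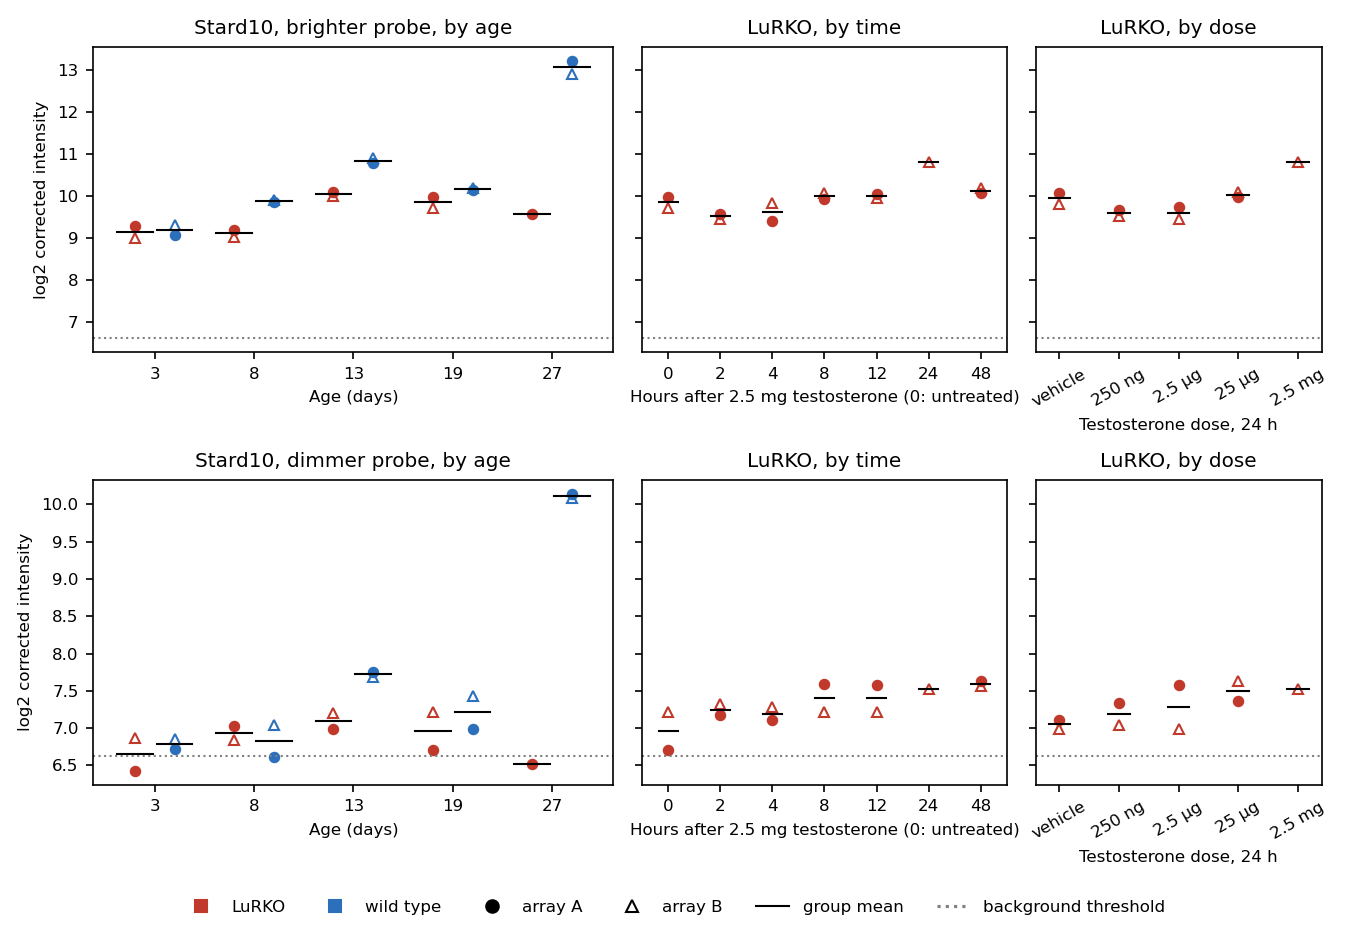
Both Stard10 probes on every array, as log2 corrected intensity, the brighter probe above and the dimmer below, with panels and symbols as for Kcnk3 and different axis ranges in the 2 rows. Wild-type day 27 testes stand above all other groups on both probes.

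Averaged over days 3, 13, 19 and 27 the brighter Stard10 probe had a difference of -1.16 (SE 0.08, limma adjusted p = 4.9e-13) and the dimmer one of -1.15 (SE 0.10, adjusted p = 2.5e-10). With days 13 and 19 alone these averages were -0.55 and -0.44. The genotype difference varied among the 4 ages on both probes (F = 89.0 and 51.4, limma adjusted p = 4.9e-13 and 2.8e-10). Compared with day 3, the brighter probe's genotype difference was lower by -0.76 at day 13, by -0.27 at day 19 and by -3.46 at day 27.

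From day 3 to day 27 Stard10 was called higher in wild-type testes and was not called in LuRKO testes. The brighter probe was 14.6-fold higher at day 27 than at day 3 in wild-type testes (log2 3.87, SE 0.14), and the dimmer was higher by 3.32 on the log2 scale (SE 0.20). In LuRKO testes the brighter probe differed by 0.41 (95% interval 0.04 to 0.77, limma adjusted p = 0.054). The dimmer probe was not above background on the LuRKO day 27 array (95.3) or on LuRKO day 3 replicate A (89.6), and had 120 on day 3 replicate B, so its change there could not be measured. Between the 2 ends wild-type values were not in order of age, since day 13 (1771 and 1936) lay above day 19 (1132 and 1177).

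Of the 20 group means of the brighter probe, wild-type day 27 was highest and did not overlap with the next, wild-type day 13. The third was 2.5 mg testosterone at 24 h, whose 1 array lay within the wild-type day 13 range. The lowest 3 were wild-type day 3, LuRKO day 3 and LuRKO day 8, whose ranges overlapped. Across the 20 group means the 2 probes had a Pearson r of 0.93, and 0.72 without wild-type day 27. The probes share arrays and gene, and r is a description. Kcnk3 and the brighter Stard10 probe had an r of -0.15 over the same means.

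**Figure D3:**
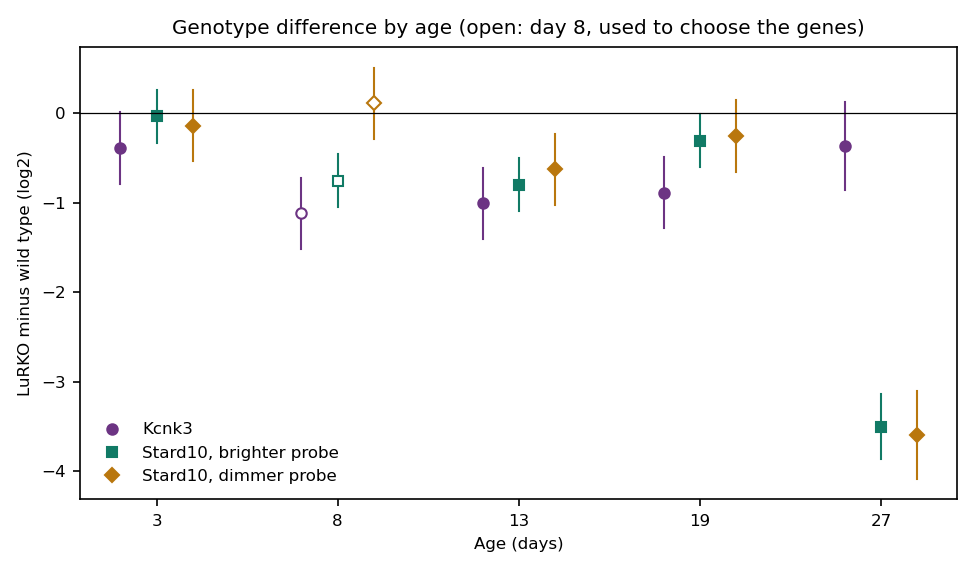
LuRKO minus wild type at each age for the Kcnk3 probe and both Stard10 probes, as log2 differences with 95% intervals from limma, with day 8, which chose the genes, as open symbols. Kcnk3 differs by -1.01 and -0.89 at days 13 and 19, and both Stard10 probes by over 3 at day 27.

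Testosterone was not followed by a call for higher Kcnk3 at any time or dose tested. After 2.5 mg the intensities were 87.6 and 80.9 at 2 h, 80.8 and 81.3 at 4 h and 81.0 and 90.1 at 8 h. They were 82.9 and 87.4 at 12 h, 90.8 on the 1 array of 24 h and 79.6 and 78.0 at 48 h, against 98.1 and 126 in untreated day 19 LuRKO testes. None of these treated arrays was above background, and all lay below both untreated arrays. At 48 h Kcnk3 was at least 1.09-fold lower (measured log2 means 6.24 and 6.75, limma adjusted p = 0.047) and called. The call was lost without either 48 h array (-0.53 without A and -0.50 without B) and without untreated replicate B (-0.33). At the other times the measured differences were between -0.47 and -0.30 and were not called.

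The comparisons with untreated testes called 21.0% of probes at 2 h, 25.5% at 4 h, 20% at 8 h, 16.3% at 12 h, 8.83% at 24 h and 28.5% at 48 h. They share the untreated arrays, which came from the age series and not from the injected mice. Treated mice were also older than untreated ones by the hours after injection. For both genes, testosterone cannot be told apart from series and age in these comparisons. Against vehicle, Kcnk3 at 48 h was at least 1.13-fold lower (measured difference -0.57, limma adjusted p = 0.044), in a comparison that called 15.8% of probes. It was not called without vehicle replicate A (-0.33, adjusted p = 0.40), nor without 48 h replicate A (-0.59) or B (-0.56). Without vehicle replicate B it was -0.82 and called. Vehicle testes were taken at 24 h, so age differed in this comparison too.

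By dose, Kcnk3 intensities were 101 and 83.5 at 250 ng, 84.1 and 86.4 at 2.5 µg and 93.1 and 72.5 at 25 µg, against 136 and 98.0 with vehicle. Only vehicle replicate A was above background. Measured differences from vehicle lay between -0.51 and -0.34 over the 4 doses, and none was called. These comparisons called 0.0473% of probes at 250 ng, 0.0945% at 2.5 µg, 0.425% at 25 µg and 4.85% at 2.5 mg. Without vehicle replicate A the differences lay between -0.27 and -0.10. The same replicate had a sum of 7695 over the Leydig cell genes, Insl3 included, where replicate B had 1468.

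Set against wild-type testes of day 19, LuRKO testes 48 h after 2.5 mg had Kcnk3 at least 2.02-fold lower (79.6 and 78.0, against 209 and 198, limma adjusted p = 5.0e-06). This comparison called 12.9% of probes. The treated mice were older by the 48 h after injection. Kcnk3 was lower at later ages, and the part of age here was not tested. Vehicle and untreated LuRKO testes differed by 0.05 (95% interval -0.34 to 0.45) in Kcnk3.

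Stard10 was higher on the brighter probe in the 1 array taken 24 h after 2.5 mg testosterone. The intensity was 1806 on that array, against 1019 and 855 in untreated day 19 LuRKO testes, a 1.94-fold higher level (log2 0.96, SE 0.18, limma adjusted p = 0.000555). Against vehicle, at 1091 and 903, it was 1.82-fold higher (log2 0.87, SE 0.18, adjusted p = 0.0058). It was called without vehicle replicate A (1.00) and not without vehicle replicate B (0.73, adjusted p = 0.056). The dimmer probe on the same array differed from untreated testes by 0.57 (SE 0.24) and from vehicle by 0.48 (SE 0.24), neither called. The result rests on 1 pool of 2 animals, whose own spread is unknown and is taken from the other groups.

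On that array the sum of macrophage markers was 4055, against 2588 to 2916 in untreated testes, with 4 of 11 markers higher and 1 lower. The sum of androgen-responsive Sertoli cell genes was 24035, against 13411 to 15224, with 5 of 12 higher. The sum of spermatid genes was 11973, against 12094 to 12189, with 1 of 14 lower. Of all genes 4.89% were higher and 4.51% lower on this array. Their part in the Stard10 result was not tested.

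At the other times the brighter probe was not called. It had 771 and 711 at 2 h, 688 and 917 at 4 h, 977 and 1080 at 8 h, 1062 and 1006 at 12 h and 1083 and 1177 at 48 h. Differences from untreated testes were -0.34 at 2 h, -0.23 at 4 h, 0.14 at 8 h, 0.15 at 12 h and 0.28 at 48 h, the last with a 95% interval of -0.02 to 0.57. The dimmer probe had 201 and 193 at 48 h, against 108 and 152 in untreated testes, and was called higher (log2 0.64, SE 0.20, limma adjusted p = 0.014). This call was lost without 48 h replicate A (0.61) or B (0.67), without untreated replicate A (0.39) and with vehicle as the control (0.55). At 48 h 11 of 14 spermatid genes were higher and 1 lower, with a sum of 22886 to 24553, against 12094 to 12189 in untreated testes, and what part they had in the dimmer probe's difference was not tested. Of all genes 15.6% were higher and 15.4% lower at 48 h.

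At lower doses the brighter Stard10 probe had 817 and 745 at 250 ng, 859 and 707 at 2.5 µg and 1008 and 1099 at 25 µg. Differences from vehicle were -0.35, -0.35 and 0.09, and none was called. Both arrays at 250 ng and at 2.5 µg lay below both vehicle arrays, and those at 25 µg overlapped with them at their upper end. The dimmer probe differed from vehicle by 0.14 at 250 ng, 0.23 at 2.5 µg and 0.45 at 25 µg, and was not called at any of these doses. With the 4 arrays of 250 ng and 2.5 µg as the control, a choice made after the data were seen, the brighter probe at 2.5 mg was higher by 1.21.

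LuRKO testes 48 h after 2.5 mg had a brighter-probe Stard10 difference of -0.03 (95% interval -0.33 to 0.26) from wild-type day 19 testes, and the dimmer probe differed by 0.38 (SE 0.20). Neither was called. The treated mice were older by the 48 h after injection, and the part of age was not tested. Vehicle and untreated testes differed by 0.09 on the brighter probe and by 0.09 on the dimmer.

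**Figure D4:**
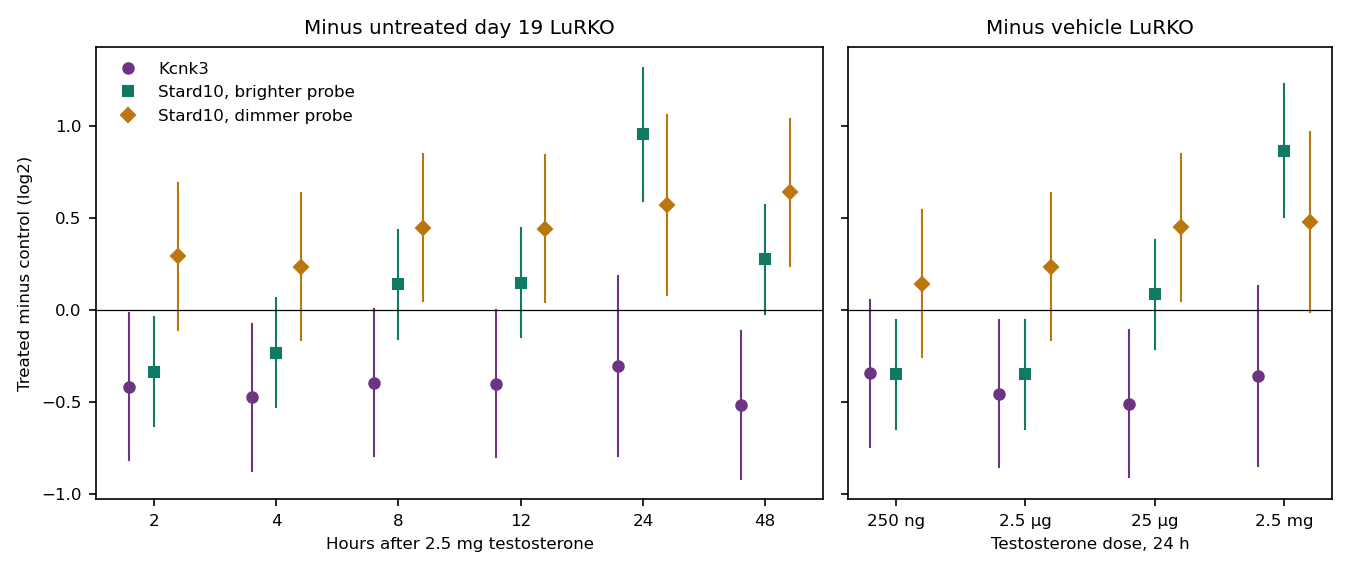
Treated minus control for the Kcnk3 probe and both Stard10 probes, as log2 differences with 95% intervals from limma, by hours after 2.5 mg against untreated day 19 LuRKO testes and by dose at 24 h against vehicle. The brighter Stard10 probe at 24 h after 2.5 mg stands at 0.96 and 0.87, and all Kcnk3 point values lie below 0.

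Other genes of the 2 families and of phosphatidylcholine metabolism were followed in the genotype average. Of 14 two-pore-domain potassium channel genes 11 were tested, 1 was higher and 5 were lower in LuRKO testes, with a median of -0.14. Over 15147 genes, each by its brightest probe, 26.6% were higher and 20.4% lower, with a median of 0.03. Besides Kcnk3, Kcnk1 was lower by -0.50 (SE 0.09) and Kcnk2, the gene of a stretch-sensitive channel, by -0.47 (SE 0.09). Kcnk5 was lower by -0.23. Kcnk4, also called lower, was above background on 7 of 38 arrays, so its size is not given. Kcnk6 was higher by 0.25 (SE 0.06). At day 13 Kcnk3 was the 1 family member called. From day 3 to day 27 Kcnk1 also fell in wild-type testes (-1.82, SE 0.17).

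Of 15 START domain genes 14 were tested, 1 was higher and 2 were lower, with a median of 0.01. Stard10 and Cert1, the gene of a ceramide carrier (-0.42, SE 0.07), were lower, and Stard7, the gene of a phosphatidylcholine carrier of mitochondria, was higher (0.38, SE 0.07). Star, which brings cholesterol into mitochondria for steroid synthesis, was not called. At day 27 Cert1 was lower by -1.74 (SE 0.16) and it rose with age in wild-type testes by 2.63 (SE 0.13).

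All 13 genes of phosphatidylcholine synthesis and remodelling were tested, 5 were higher and 1 was lower, with a median of 0.08. Cept1, a final enzyme of phosphatidylcholine and phosphatidylethanolamine synthesis, was higher by 0.46 (SE 0.06). Slc44a1, a choline carrier gene, was higher by 0.42 (SE 0.06), Pcyt1a, of the rate-setting enzyme of the pathway, by 0.37 (SE 0.09), and Slc44a2 by 0.32 (SE 0.07). In the same average Cyp17a1 was lower by -2.92 (SE 0.27), Insl3 by -2.35 (SE 0.24), Rhox5 by -2.42 (SE 0.24) and Eppin, the gene of an androgen-regulated protease inhibitor, by -0.79 (SE 0.09).

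**Figure D5:**
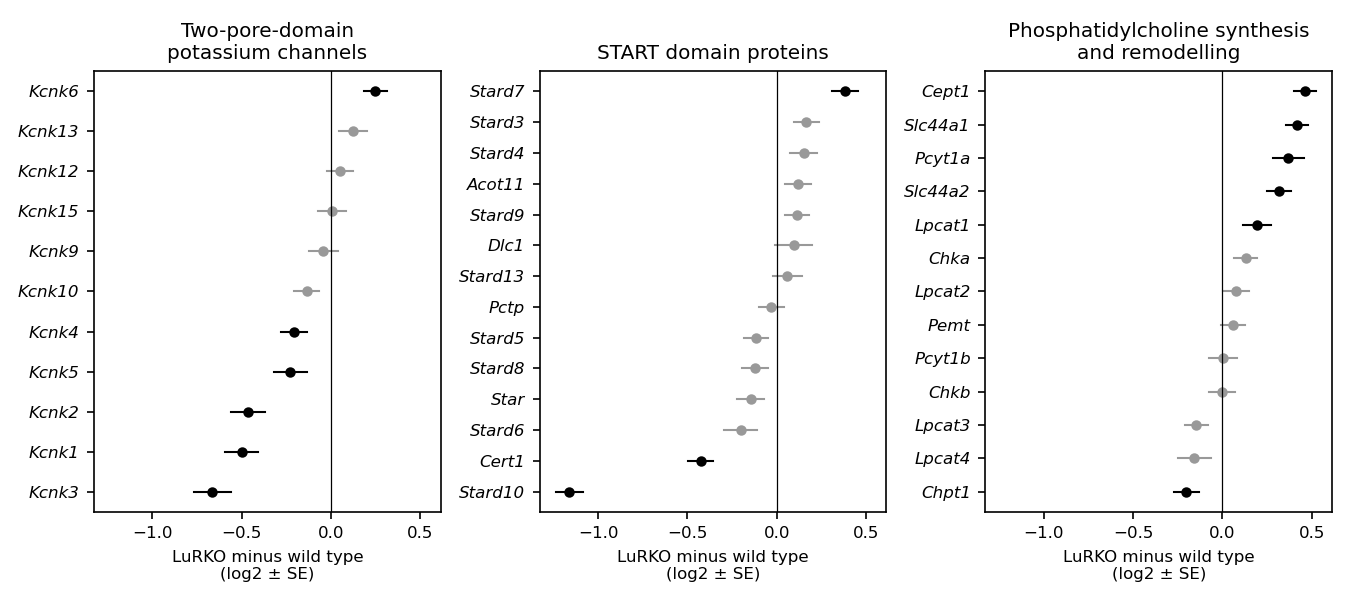
LuRKO minus wild type averaged over days 3, 13, 19 and 27, in log2 with SE, for tested genes of the 3 families, each by its brightest probe. Black points were called and grey points were not, and Kcnk3 (-0.67) and Stard10 (-1.16) are the lowest of their families.

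Genes most like each member were taken by Pearson r over the 20 group means among 14558 genes. For Kcnk3 these were Hapln1 (0.97), a hyaluronan link protein gene, Hao2 (0.97), a peroxisomal oxidase gene, Idh2 (0.96), a mitochondrial isocitrate dehydrogenase gene, Mr1 (0.96) and Lpar1 (0.96), a lysophosphatidic acid receptor gene. In the genotype average the differences of these 5 ran from -0.99 (Hao2) to -0.11 (Lpar1). For the brighter Stard10 probe they were Osgin1 (0.92), Egfbp2 (0.92), Gzmn (0.90), a granzyme gene, Ppef1 (0.89) and Spag4 (0.89), a sperm antigen gene, with average differences from -1.24 (Spag4) to -0.52 (Ppef1). At day 8 the 5 genes most like Kcnk3 had differences between -0.12 and -0.02, and those most like Stard10 between -0.39 and 0.05. The group means share arrays and, for Kcnk3, a common trend with age, and r is a description. The brighter Stard10 probe had a mean of 13.1 in wild-type day 27 testes, against 10.9 in the next group. For the genes most like Stard10, r was not taken without wild-type day 27.

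In the comparison that chose the genes, 0.0725% of all probes were called. Around the threshold, with 1 probe per gene, Trpm7, a cation channel kinase gene, was the last inside with a difference of -0.61. Reep6 (-0.63) and Lpar3, a lysophosphatidic acid receptor gene (-0.59), were the first outside it. These values describe the choice and carry no test.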

How the data were processed

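Testis RNA, pooled from 2 animals per array, was read on 38 Illumina arrays with BeadStudio, per the submitters' processing notes and the labels. The authors' deposited table gives linear intensities per probe. From the values, the authors had quantile-normalized them (array medians 108.1 to 108.3). A table of unnormalized signals was left out, since none of its 76 columns could be tied to a labelled sample.

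Intensities were corrected by normexp (offset 50) and taken as log2 in limma 3.58.1 under R 4.3.3. The threshold for above background, 102 (6.63 on the corrected log2 scale), came from the mode and the spread below it at a one-sided 0.01. Probes above it on at least 2 arrays were kept. Symbols came from GEO's platform annotation, updated through RefSeq, with 1 symbol for 34885 probes, several for 18 and none listed for 10378. A probe with no array above background in 1 group has its fold written as at least N-fold, with the dim group set at the threshold or at its own signal where that is greater.

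Limma's lmFit and eBayes were run on the 38 arrays together, with a mean for each group (residual degrees of freedom 18, prior 11.8), and p-values were adjusted over all kept probes. The groups came from the labels. Named genes were every probe of both members, up to 4 members of each of the 3 family lists with the largest called genotype average, Cyp17a1, Insl3, Rhox5, Eppin and the 5 genes most like each member. Kcnk4, Kcnk5, Ldhc, Prm1, Star, Trpm7, Reep6, Lpar3 and the 3 Hsd genes were named after their values were seen. The members and the 13 gene lists were chosen with earlier results of these data known. The genes of the luteinizing hormone and androgen receptors are not reported here. The fit was tested on simulated data. Alternatives were 1 probe per gene, the mean of a gene's probes, no further background correction, an offset of 16, scaling to 1 median, no filter on dim probes, arrays of 1 experimental series, a replicate block, other controls and leaving out each array. Leaving out 3 arrays together, the 4 low-dose arrays as control and vehicle replicate B as control were chosen after seeing the data.

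In the genotype average 26.6% of all genes were higher and 20.4% lower. Among the marker lists not described with the results, it had 6 of 14 spermatogonial markers higher and 1 lower, and 3 of 12 meiotic prophase genes higher and 1 lower. It had 1 of 7 peritubular myoid markers higher and 2 lower, 2 of 11 endothelial markers higher and 2 lower, and 0 of 3 erythroid genes called by limma. Of 12 Sertoli cell markers 10 were higher and 1 was lower, and of 11 macrophage markers 9 were lower.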

Additional observations from a re-analysis of the deposited data

Results flagged for a closer look

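The genotype difference of Stard10 differed among days 3, 13, 19 and 27 by limma's test of the difference itself, on the brighter probe (F = 89.0, adjusted p = 4.9e-13) and on the dimmer (F = 51.4, adjusted p = 2.8e-10). On the brighter probe the LuRKO minus wild type difference was -0.04 at day 3, -0.80 at day 13, -0.31 at day 19 and -3.50 at day 27. Day 27 has 1 LuRKO array. No group has 4 or more arrays, so single outlying arrays were not tested.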

How the results depend on the processing

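Differences are log2. Over the alternatives other than leaving out single arrays, 544 values kept direction and call, 12 lost a call, 7 gained one and 5 changed sign. Leaving out single arrays gave 257, 20, 8 and 15. The replicate letters did not pair the arrays: LuRKO and wild-type deviations correlated at 0.03, 0.13, 0.06 and -0.06 at days 3, 8, 13 and 19. The replicate block changed no call for either gene, and gave Kcnk3 an average genotype difference of -0.68. The cause of the changes below was not tested unless named.

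The 48 h Kcnk3 call against untreated testes was lost with the mean of probes (-0.52), no further background correction (-0.50), no filter (-0.52) and vehicle B as control (-0.33), and that against vehicle with no filter (-0.57), low-dose control (-0.17) and without the arrays that stood apart (-0.33). Kcnk3 gained a call at 4 h with offset 16 (-0.75) and, with 1 series alone, at 2 h (-0.42) and 4 h (-0.47). With the low-dose control, Kcnk3 at 2.5 mg and 24 h became 0.041, and Stard10 at 48 h was called at 0.54. With the mean of its probes, Stard10 was 0.00176 at 4 h, called at 48 h (0.46) and 0.18 at 48 h against wild-type day 19. With 1 probe per gene, the LuRKO change of Stard10 with age was called (0.41). Without the arrays that stood apart, vehicle minus untreated became -0.19 for Kcnk3 and -0.048 for Stard10, and the F of Kcnk3 was 6.53 and called. The day 8 calls of both genes were lost with offset 16 (-1.22 for Kcnk3 and -0.79 for Stard10), and that of Stard10 with the mean of its probes (-0.32). Leaving out single arrays ended the Kcnk3 day 8 call in 2 of 4 cases (-1.27 to -0.97) and that of the brighter Stard10 probe in 4 of 4 (-0.84 to -0.68).

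Leaving out single arrays, Kcnk3 ranged from -0.69 to -0.088 at day 3, from -1.23 to -0.79 at day 13, from -0.70 to -0.048 at day 27, from -0.66 to -0.29 at 4 h, from -0.70 to -0.33 at 48 h against untreated testes, from -0.82 to -0.33 at 48 h against vehicle and from -0.19 to 0.30 for vehicle minus untreated, and its F from 1.70 to 4.51. The brighter Stard10 probe ranged from -0.18 to 0.10 at day 3, from -0.86 to -0.73 at day 13, from 0.27 to 0.55 for LuRKO day 27 minus day 3, from -0.092 to 0.029 at 48 h against wild type, from -0.052 to 0.22 at 25 µg, from 0.73 to 1.00 at 2.5 mg against vehicle and from -0.048 to 0.23 for vehicle minus untreated. The dimmer ranged from -0.36 to 0.080 at day 3, from -0.11 to 0.33 at day 8, from -0.35 to 0.092 for LuRKO day 27 minus day 3, from -0.018 to 0.49 at 4 h, from -0.0054 to 0.29 at 250 ng, from -0.057 to 0.53 at 2.5 µg and from -0.16 to 0.35 for vehicle minus untreated.

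Of all probes, 23 were called at day 8, and 8 with offset 16. At day 13, 449 were called, and 259 with offset 16. With vehicle in place of untreated testes, calls were 679 (against 6680) at 2 h, 2802 (8104) at 4 h, 1063 (6339) at 8 h, 398 (5160) at 12 h, 1539 (2803) at 24 h and 5002 (9048) at 48 h. Within 1 series 16 (against 135) were called at 25 µg and 711 (1539) at 2.5 mg, and over days 13 and 19 alone 4331 (13287). Signal near background limits Kcnk3 from day 19 on and the dimmer Stard10 probe throughout, except in wild-type day 27 testes.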
